A study of Mus musculus with 8 samples.

Results

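The genes described here were measured in mouse primary keratinocytes over 4 h of tamoxifen. All but Erf encode proteins that switch the ERK pathway off again after it has been switched on. Erf encodes a repressor that ERK drives out of the nucleus. The genes were chosen by name, as every probe set whose single platform gene symbol is Dusp1, Dusp4, Dusp5, Dusp6, Spry2, Spry4, Spred1, Errfi1 or Erf. That gave 13 of 22690 probe sets, covering 7 of the 9 genes. For Dusp4 and Dusp5 no such probe set was found, and they were not analysed here. Dusp1 and Dusp6 had 1 probe set each, Spry2, Spry4, Errfi1 and Erf 2 each, and Spred1 3. Of the 13, 11 were above the brightness limit used for testing, and both Spry4 probe sets were below it, so 6 genes were tested, each through its brightest probe set.

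Growth factor receptors such as the EGF receptor signal through Ras, Raf and MEK to the kinase ERK, which drives keratinocyte proliferation, migration and survival. Active ERK also raises the expression of its own brakes. Errfi1 binds the EGF receptor and blocks its kinase domain. Sprouty proteins (Spry2, Spry4) and the related Spred proteins act between the receptor and Raf, and Spred1 brings the Ras-inactivating protein neurofibromin to the membrane. Dual-specificity phosphatases remove the activating phosphates from ERK itself, Dusp6 in the cytoplasm and with a strong preference for ERK, and Dusp1 in the nucleus and also on the stress kinases JNK and p38. Erf is an ETS-family repressor that ERK phosphorylates and drives out of the nucleus.

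All cells were mouse primary keratinocytes infected with an empty retrovirus, including the untreated ones, and the strain, the age of the mice and the tamoxifen dose are not given in the sources used here. Untreated cells were measured on 2 arrays, and cells exposed to tamoxifen, which binds the estrogen receptor, on a single array each at 20, 40, 60, 120, 180 and 240 min. A description shared by all samples mentions tamoxifen, but the titles of 2 samples say untreated and were followed. No tamoxifen time has a replicate, and arrays of cells handled without tamoxifen for the same times were not analysed here, so tamoxifen, handling and time in culture cannot be told apart. Whether each array stands for a culture of its own is not stated, and the p-values therefore reflect the spread between arrays, which may be technical. Arrays of different times were pooled for testing, so that spread also holds any change between those times.

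Keratinocyte markers were present throughout: all 12 markers with a probe set (of 14 listed, among them Krt5 and Krt14) were above the brightness limit, and their mean log2 level lay between 11.56 and 11.68 on the 8 arrays. None of 4 endothelial markers was above it, 4 of 9 leukocyte and Langerhans cell markers were, without Ptprc and Cd207, and 7 of 9 fibroblast markers were, without Dcn and Lum. All 4 melanocyte markers with a probe set were above it, with a mean between 10.65 and 10.83. The arrays also differed in proliferation genes. The mean log2 level of 29 G2 and M phase genes was 9.60 and 8.80 in untreated replicates 1 and 2, 9.05, 9.39 and 9.28 at 20, 40 and 60 min, and 8.81, 8.91 and 9.51 at 120, 180 and 240 min. All 4 leukocyte and Langerhans cell markers lay below untreated in the first hour, with array means of 7.51 to 7.59 against 7.64 and 7.74 (7.60 to 7.73 later), as did 5 of 6 markers of differentiated keratinocytes (array means of all 6 between 10.82 and 10.91, against 11.00 in both untreated arrays). Of the 7 fibroblast markers, 6 lay below untreated in the first hour (median -0.08, log2) and 6 above the first hour at 120 to 240 min (median 0.12), with array means of 8.47 and 8.52 untreated, 8.42 to 8.44 in the first hour and 8.48 to 8.58 later. Of the 5 adipocyte markers listed, 1 was above the brightness limit, without Adipoq and Pparg. This was the fatty acid carrier Fabp4, at 9.79 and 10.63 (log2) untreated, 9.50, 9.28 and 9.01 at 20, 40 and 60 min, and 10.95, 10.08 and 9.51 at 120, 180 and 240 min. Its differences were -0.95 ± 0.37 (SE) in the first hour and 0.92 ± 0.33 between the windows (limma, adjusted p = 0.341 and 0.207). These shifts fall in the same windows as the members' differences below, and their part in the members' values was not tested. In RNA from a whole culture, fewer cells of a type and less RNA per cell cannot be told apart.

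The promoters of the 3 members with the smallest p-values below, Dusp1, Errfi1 and Erf, are shown because each holds the letters TGACGTC, which make up most of the cAMP response element. The sequences are the 250 bases before the start site in RefSeq (build GRCm38.p6), 5′ to 3′ on the gene's strand, and capitals mark TGACGTC or its reverse complement GACGTCA, which overlap in TGACGTCA. Dusp1 lies at chr17:26508473-26508722 on the minus strand, Errfi1 at chr4:150854820-150855069 on the plus strand and Erf at chr7:25250759-25251008 on the minus strand.
Dusp1: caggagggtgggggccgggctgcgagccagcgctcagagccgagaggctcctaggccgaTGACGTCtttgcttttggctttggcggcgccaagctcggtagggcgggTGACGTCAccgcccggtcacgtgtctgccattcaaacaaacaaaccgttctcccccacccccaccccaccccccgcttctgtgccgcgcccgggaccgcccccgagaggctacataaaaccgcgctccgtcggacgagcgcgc
Errfi1: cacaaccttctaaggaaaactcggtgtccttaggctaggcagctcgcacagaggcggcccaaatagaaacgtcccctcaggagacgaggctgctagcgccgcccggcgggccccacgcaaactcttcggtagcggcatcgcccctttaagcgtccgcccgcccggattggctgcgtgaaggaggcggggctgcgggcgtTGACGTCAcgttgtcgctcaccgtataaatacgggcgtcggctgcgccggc
Erf: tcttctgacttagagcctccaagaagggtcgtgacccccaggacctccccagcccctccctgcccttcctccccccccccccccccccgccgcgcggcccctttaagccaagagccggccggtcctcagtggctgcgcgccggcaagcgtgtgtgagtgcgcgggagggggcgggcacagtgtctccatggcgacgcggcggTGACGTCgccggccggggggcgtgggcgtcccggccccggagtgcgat

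The motif begins 191 and 143 bases before the start site in Dusp1, 51 in Errfi1 and 48 in Erf. Among all 32851 promoter windows of that length, 2.78% hold it. RefSeq lists a further Errfi1 start site, whose window at chr4:150853546-150853795 does not hold these letters, and neither do the windows of Dusp6, Spry2 and Spred1. The CArG box, which binds serum response factor, was in 1.47% of all windows and in none of the 6 measured members with a window. The window of Dusp5, which had no probe set, holds the CArG box. The AP-1 letters TGANTCA (6.75% of windows) and the ETS letters CCGGAA (12% of windows) were in none of the windows of these 7 genes. All motifs were searched on both strands and were chosen after the sequences and values had been seen, so their presence is a description of these letters.

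The first question was whether the members differed between the untreated arrays and the first hour of tamoxifen. Dusp1 and Errfi1 were the members farthest above untreated, at 1.18-fold and 1.17-fold, and no member passed the test across all genes. Dusp1 (probe set 1448830_at) had intensities of 401 and 362 in the untreated arrays, 433, 450 and 476 at 20, 40 and 60 min, and 433, 413 and 445 at 120, 180 and 240 min. All 6 tamoxifen arrays lay above both untreated arrays, a placement met by 3.26% of the 9294 genes tested, and the highest value was at 60 min. On the log2(intensity + 16) scale, where differences of dim probe sets come out smaller than they are, the mean was 8.63 ± 0.10 (SD, n = 2) untreated and 8.87 ± 0.07 (SD over 3 times) at 20 to 60 min. The difference was 0.24 ± 0.06 (log2, SE), a 1.18-fold difference (limma, rank 118 of 9294 genes by p, adjusted p = 0.331). At 120 to 240 min Dusp1 was 0.17 ± 0.06 above untreated (1.12-fold; limma, rank 144, adjusted p = 0.999). The untreated arrays themselves differed by -0.14 (replicate 2 minus replicate 1). Without untreated replicate 2 the early difference was 0.17 (limma, adjusted p = 0.990) and the later one 0.10 (adjusted p = 0.956). With the mean of the G2 and M phase genes on each array as a covariate, the first-hour difference was 0.23. It passed in that fit (limma, adjusted p = 0.0320), as did 6.26% of all genes.

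Errfi1, the EGF receptor inhibitor, had its highest value at 60 min on both of its probe sets. The brighter one, 1416129_at, read 788 and 702 untreated, 855, 828 and 948 at 20, 40 and 60 min, and 765, 739 and 817 at 120, 180 and 240 min. Its 3 first-hour arrays lay above both untreated arrays and above all 3 later arrays, while the later arrays overlapped the untreated ones. Taken singly, the first placement was met by 16.1% of all genes and the second by 8.5%. The share meeting both was not counted. The log2 difference at 20 to 60 min was 0.23 ± 0.08 (SE), a 1.17-fold difference (limma, rank 388, adjusted p = 0.331), and at 120 to 240 min it was 0.05 ± 0.08. The other, 1419816_s_at, read 366 and 361 untreated, 380, 404 and 449 in the first hour and 383, 361 and 377 later. It differed by 0.17 ± 0.07 in the first hour, in a fit of all 22626 probe sets (limma, adjusted p = 0.395). At 60 min alone the 2 probe sets were 1.27-fold and 1.23-fold above the untreated mean, with no replicate to check them. Without untreated replicate 2 the first-hour difference of the brighter probe set was 0.15 (limma, adjusted p = 0.990).

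**Figure D1:**
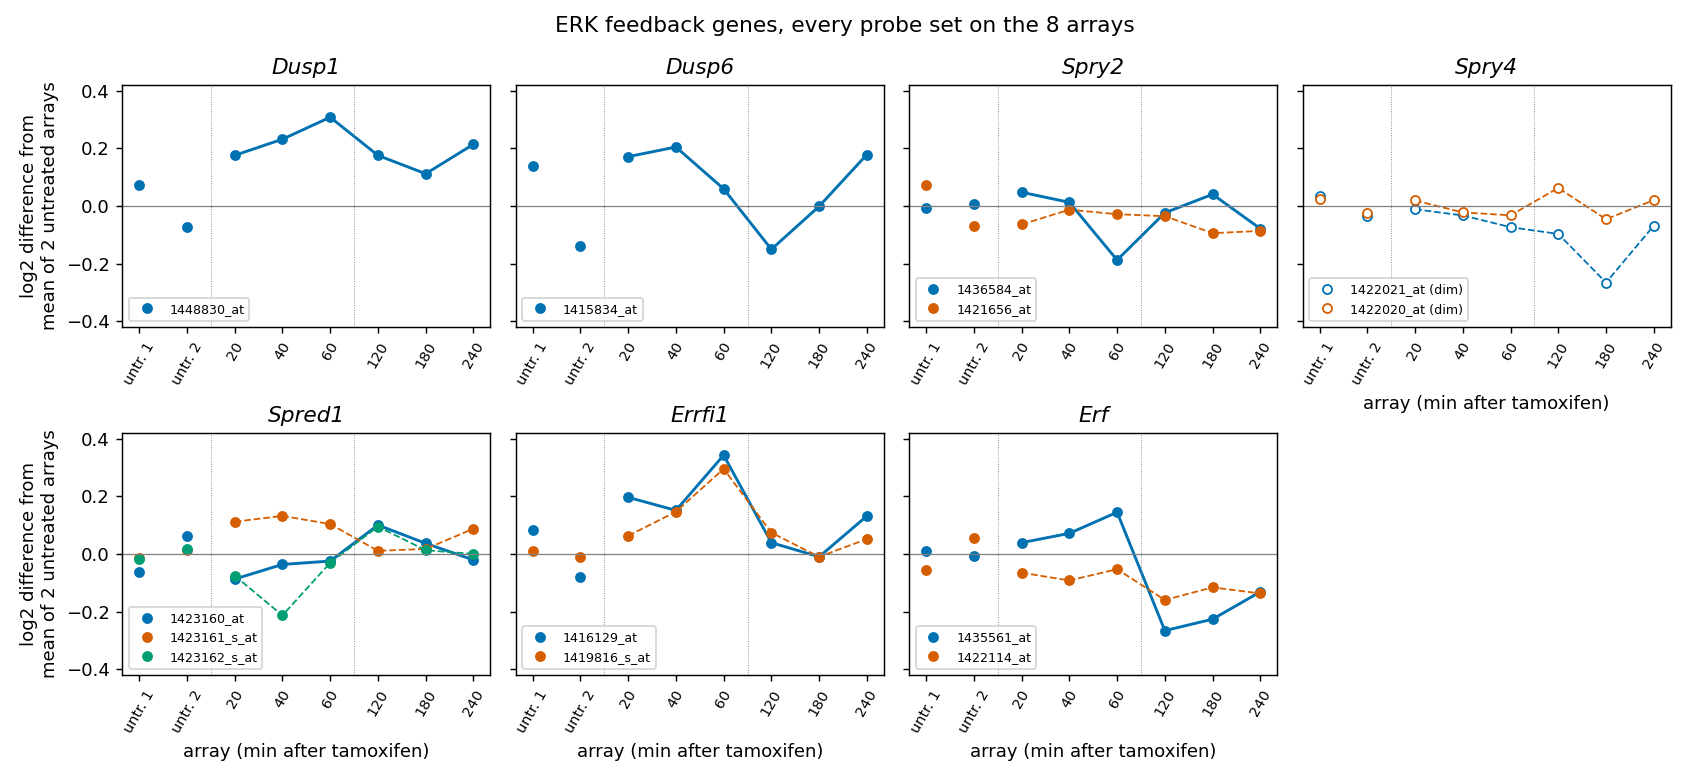
Log2 difference of each array from the mean of the 2 untreated arrays (vertical axis) for every probe set of 7 genes, by array (horizontal axis, min after tamoxifen). Points are single arrays, solid lines are the probe sets tested, dashed lines the other probe sets and open points those below the brightness limit; Errfi1 peaks at 60 min on both probe sets, Dusp1 lies above both untreated arrays at all 6 times, and Erf lies below both at 120, 180 and 240 min on both probe sets.

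Dusp6, the cytoplasmic ERK phosphatase, differed more between the untreated arrays than between any of the 3 windows. Its intensities (1415834_at) were 846 and 696 untreated, 866, 886 and 800 at 20, 40 and 60 min, and 689, 766 and 870 at 120, 180 and 240 min. The lowest values were those of untreated replicate 2 and 120 min, and the highest those of 40, 240 and 20 min. The untreated arrays differed by -0.28 (log2, replicate 2 minus replicate 1), more than the first-hour difference of 0.14 ± 0.11 (SE; limma, adjusted p = 0.523) or the later one of 0.00884 ± 0.11 (adjusted p = 0.999). The first-hour difference was 0.00677 without untreated replicate 2 and 0.28 without untreated replicate 1, so it rested on which untreated array it was taken against. Without untreated replicate 2 the later difference was -0.13 and without 240 min it was -0.08.

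Across the 8 arrays Dusp6 had the closest relation to proliferation of the 6 members tested. Pearson's r with the G2 and M phase mean was 0.82 (exact permutation test, two-sided, p = 0.0174, adjusted over the 6 members p = 0.105), Spearman's rho was 0.76 (exact permutation p = 0.0368, adjusted p = 0.221), and r was 0.80 without the 2 untreated arrays, which lay farthest from the median of that mean. For Spred1, on its brightest probe set 1423160_at alone, r was -0.72 (exact permutation p = 0.0538, adjusted p = 0.161), rho was -0.67 (exact permutation p = 0.0831, adjusted p = 0.249) and r was -0.59 without them. Neither relation passed after adjustment. Pearson's r was 0.51 for Errfi1, 0.44 for Erf, 0.41 for Dusp1 and -0.35 for Spry2, with exact permutation p-values of 0.200, 0.260, 0.328 and 0.433 and adjusted values of 0.391, 0.391, 0.394 and 0.433. Their rho values were 0.52, 0.40, 0.38 and -0.26 (exact permutation p = 0.197, 0.327, 0.360 and 0.536, adjusted p = 0.393, 0.432, 0.432 and 0.536). Without the 2 untreated arrays r was 0.53, 0.57, 0.64 and -0.44 for those 4 genes.

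**Figure D2:**
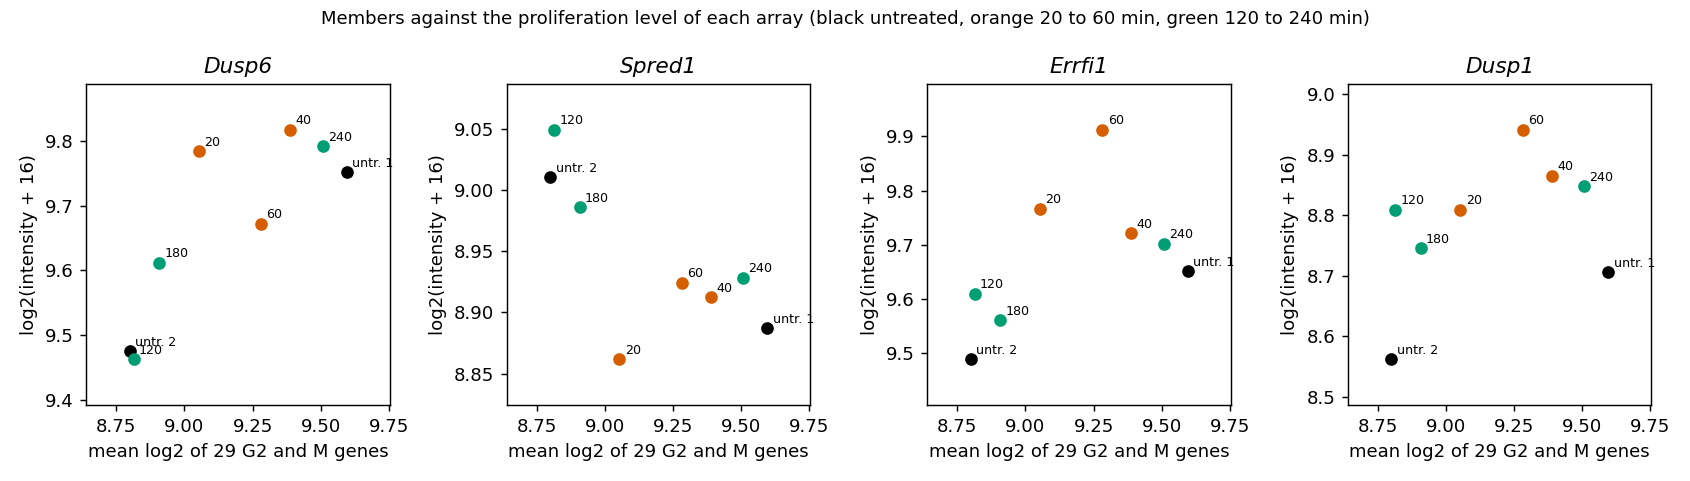
Log2(intensity + 16) of Dusp6, Spred1, Errfi1 and Dusp1 (vertical axes, each on its own scale) against the mean log2 level of 29 G2 and M phase genes (horizontal axis), 1 point per array. Dusp6 is lowest on untreated replicate 2 and at 120 min, where the proliferation mean is 8.80 and 8.81, and the 60 min point of Errfi1 and Dusp1 is the highest of each panel at a mean of 9.28.

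The Sprouty genes gave small differences of mixed sign. The brighter Spry2 probe set, 1436584_at, read 334 and 338 untreated, 347, 339 and 293 at 20, 40 and 60 min, and 330, 346 and 317 at 120, 180 and 240 min. The 60 min array was the lowest, at 0.88-fold of the untreated mean. The differences from untreated were -0.04 ± 0.07 (log2, SE) in the first hour and -0.02 ± 0.07 later (limma, adjusted p = 0.802 and 0.999), and without 60 min the first was 0.03. The dimmer, 1421656_at, read 159 and 142 untreated and between 140 and 149 after tamoxifen, with 147 at 60 min, so it did not show the low 60 min value. Spry4 intensities were between 81 and 104 on 1422021_at and between 82 and 90 on 1422020_at, all under the intensity of 116 at the brightness limit. The brighter of these was lowest at 180 min (81, against 104 and 98 untreated) and the dimmer read 82 there, against 87 and 84. In the fit of all probe sets the brighter differed by -0.14 ± 0.06 at 120 to 240 min (limma, adjusted p = 1.00), and the dimmer by 0.01 ± 0.05.

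Spred1 gave opposite courses on different probe sets. The brightest, 1423160_at, read 458 and 500 untreated, 449, 466 and 470 at 20, 40 and 60 min, and 514, 491 and 471 at 120, 180 and 240 min. Another, 1423161_s_at, read 328 and 335 untreated, 360, 365 and 358 in the first hour, and 334, 336 and 354 later. The dimmest, 1423162_s_at, read 194 and 199 untreated, 186, 167 and 192 in the first hour, and 211, 199 and 197 later. In the first hour 1423161_s_at thus lay above both untreated arrays each time (0.12 ± 0.04, log2, SE; limma over all probe sets, adjusted p = 0.391), whereas 1423162_s_at lay below both each time (-0.11 ± 0.06, adjusted p = 0.506) and the brightest overlapped them (-0.05 ± 0.06). Over the 8 arrays Pearson's r was 0.66 between the brightest and the dimmest of these probe sets, -0.53 between 1423160_at and 1423161_s_at, and -0.72 between 1423161_s_at and 1423162_s_at, given as a description. The latter pair carries the suffix that Affymetrix gives to probe sets able to match several transcripts. No direction for Spred1 as a gene can be read from these values.

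Between the first hour and 120 to 240 min, Erf, the ETS repressor, had the smallest p of the members, ranking 16 of 9294 genes. The brighter Erf probe set, 1435561_at, read 486 and 480 untreated, 496, 508 and 535 at 20, 40 and 60 min, and 399, 410 and 439 at 120, 180 and 240 min. All 3 later arrays lay below both untreated arrays and below every first-hour array, and the untreated arrays differed from each other by only -0.02 (log2). The mean log2 value was 8.96 ± 0.01 (SD, n = 2) untreated, 9.05 ± 0.05 (SD over 3 times) in the first hour and 8.75 ± 0.07 (SD over 3 times) later. The later window was below the first hour by -0.29 ± 0.05 (SE), 0.82-fold (limma, adjusted p = 0.158), and below untreated by -0.21 ± 0.06, 0.87-fold (limma, rank 24, adjusted p = 0.999). It missed the threshold against the first hour. It passed with array weights (adjusted p = 0.00491), where 30.8% of all genes passed, with the G2 and M phase covariate (0.0169), where 5.61% did, and without 240 min (0.0207), where 10.9% did. Its adjusted p lay between 0.00491 and 0.483 over the 17 alternatives of that fit.

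The other Erf probe set, 1422114_at, near the brightness limit, read 120 and 131 untreated, 119, 117 and 120 in the first hour, and 111, 115 and 113 later. It too lay below both untreated arrays at 120, 180 and 240 min (-0.14 ± 0.05, log2, SE; limma over all probe sets, adjusted p = 1.00). In the first hour it did not lie above untreated (-0.07 ± 0.05, against 0.09 ± 0.06 on the brighter probe set), so its step between the windows was smaller, -0.07 ± 0.04 (adjusted p = 0.472).

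Errfi1 was lower in the later window than in the first hour by -0.18 ± 0.07 (log2, SE), 0.88-fold (limma, adjusted p = 0.220), and its second probe set by -0.13 ± 0.06 (adjusted p = 0.332). Errfi1 passed with array weights (adjusted p = 0.0149), as did 30.8% of all genes, and in no other alternative of that fit. Dusp1 differed by -0.07 ± 0.06, Dusp6 by -0.14 ± 0.10, Spred1 by 0.09 ± 0.05 and Spry2 by 0.02 ± 0.07 (limma, adjusted p = 0.506, 0.441, 0.379 and 0.879).

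**Figure D3:**
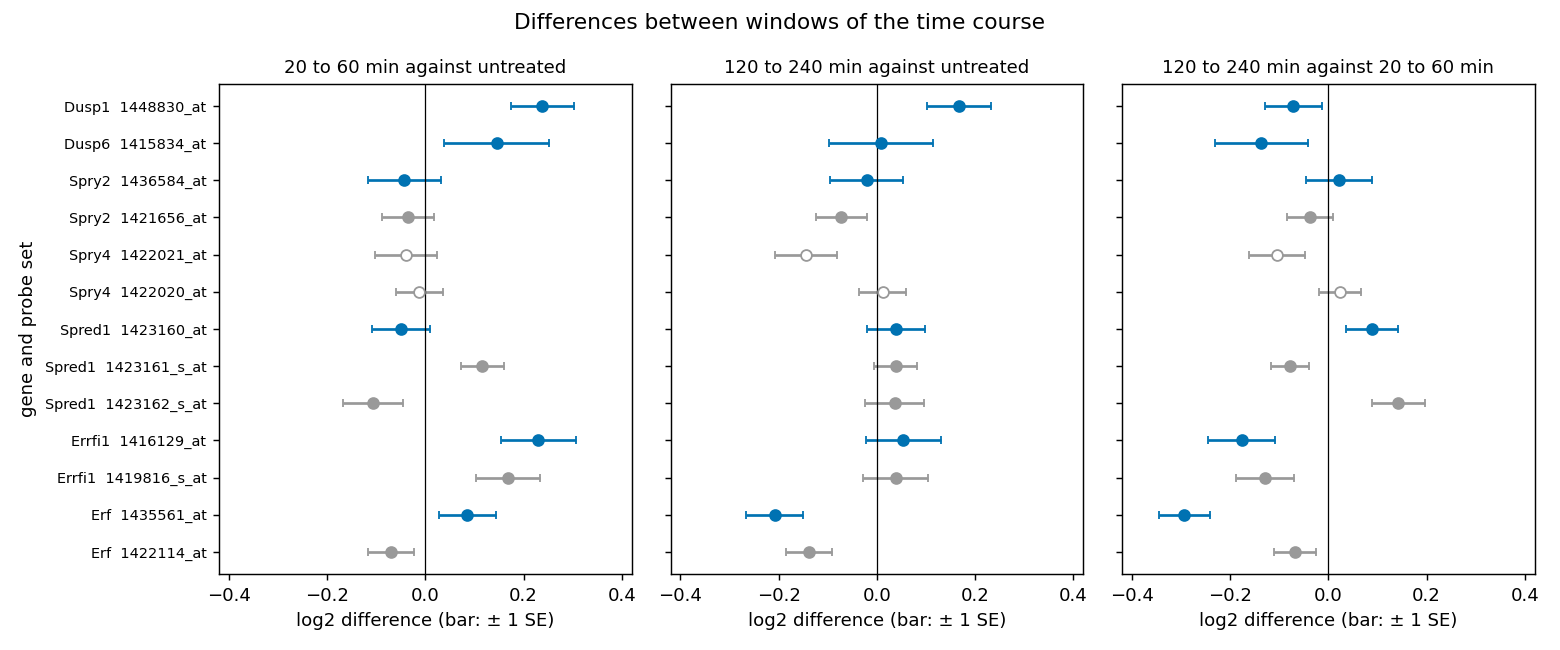
Log2 differences between windows (horizontal axes, bars ± 1 SE) for the 13 probe sets (vertical axis). Blue points are the probe sets tested as genes, grey points the others from the fit of all probe sets and open points those below the brightness limit; Dusp1 and Errfi1 lie to the right of 0 in the first hour, and both Erf probe sets lie to the left of 0 at 120 to 240 min.

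As a set, 0 of the 6 members passed in any of the 3 comparisons, and neither did any other gene (0% of 9294 genes in limma in each). At an unadjusted p under 0.05, the members above untreated in the first hour were Dusp1 and Errfi1, 2 of 6, against 6.67% of all genes, and none was below, against 7.19%. At 120 to 240 min Dusp1 was above untreated (1.36% of all genes) and Erf below (1.82%). Between the windows Erf and Errfi1 were lower, against 7.45% of all genes, and no member was higher, against 12%. Both comparisons with untreated share the same 2 arrays. The members were chosen with earlier results of these data known, so the counts are given as a description. The median difference of the 6 members was 0.12 in the first hour and 0.02 later, beside -0.01 and 0.00725 over all genes, and -0.10 between the windows, beside 0.02. In the first hour Dusp1, Errfi1 and Erf did not overlap the untreated arrays on the higher side, against 16.1% of all genes, and none on the lower side, against 20.1%. At 120 to 240 min Dusp1 did not overlap them on the higher side (9.26% of all genes) and Erf on the lower (7.98%). By sign alone, 4, 4 and 2 of the 6 members lay above 0 in the 3 comparisons, beside 44.5%, 55.2% and 56.2% of all genes. Between the windows Erf and Errfi1 did not overlap on the lower side (8.5% of all genes) and Spred1 did not overlap on the higher side (13.6%), a direction that 1423161_s_at does not share.

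At no single time was a member at least 1.5-fold from both untreated arrays, a distance reached by 0.0323%, 0.0753% and 0.473% of genes at 20, 40 and 60 min and by 0.0215%, 0.0108% and 0.0538% at 120, 180 and 240 min. Dusp1, Errfi1 and Erf had their highest value of the 8 arrays at 60 min, as did 23.4% of all genes, and Dusp1 and Errfi1 their lowest in untreated replicate 2, as did 13.2%. The range over the 8 arrays was 0.42 (log2) for Errfi1, 0.41 for Erf, 0.38 for Dusp1, 0.35 for Dusp6, 0.24 for Spry2 and 0.19 for Spred1. The first of these was wider than that of 87.7% of the genes tested, and the last wider than that of 31.0%.

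Other feedback genes were taken from a list of 24 regulators, of which 20 were tested. The list also holds genes such as Nf1, which encodes neurofibromin, and whether ERK raises each of its genes was not tested. Above untreated in the first hour were 14 of the 20 (beside 44.5% of all genes), with a median of 0.07 (log2) beside -0.01 over all genes. At an unadjusted p under 0.05 (limma), 4 lay on the higher side, against 6.67% of all genes, and none on the lower side, against 7.19%. These 4 were Dusp10, Dusp16, Spred2 and Dusp8. Dusp10, a phosphatase that prefers JNK and p38, was 8.13 and 8.32 (log2) untreated, 8.51, 8.49 and 8.78 at 20, 40 and 60 min, and 8.26, 8.17 and 8.17 at 120, 180 and 240 min. All its first-hour arrays lay above both untreated arrays, as for 16.1% of all genes, and above all later arrays, as for 8.5%. The share meeting both was not counted. Dusp10 differed by 0.37 ± 0.09 (SE) in the first hour (limma, adjusted p = 0.331) and by -0.39 ± 0.08 between the windows (adjusted p = 0.175), both farther from 0 than the values of any member. Spred2, a relative of Spred1, differed by 0.20 ± 0.08 in the first hour and Dusp3, which acts on ERK and JNK, by 0.18 ± 0.09. Dusp14 lay on the other side, at -0.21 ± 0.11 in the first hour and 0.31 ± 0.10 between the windows. Between the windows 15 of the 20 lay lower and 5 higher (beside 56.2% of all genes higher), with a median of -0.06 beside 0.02 over all genes.

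The kinases and adaptors of the cascade lay on both sides of untreated. Of 22 tested, 12 lay above untreated in the first hour (beside 44.5% of all genes) and 10 below, with a median of 0.00816. On each side 1 had an unadjusted p under 0.05 (limma), against 6.67% of all genes higher and 7.19% lower. The genes at that p were the Ras relative Rras2 (0.47 ± 0.15, log2, SE) and Mknk2, a kinase activated by ERK and p38 (-0.21 ± 0.09). Mknk2 was at 0.29 ± 0.08 between the windows and Rras2 at -0.39 ± 0.14, and the next smallest p belonged to Ywhaz (-0.12 ± 0.06) and to Sos1, the Ras exchange factor (0.10 ± 0.05). None of the 22 passed (limma, adjusted p of 0.184 or more between the windows).

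Genes known to respond to ERK lay on both sides. Of 33 tested, 17 were above untreated in the first hour (beside 44.5% of all genes) and 16 below, with a median of 9.23e-04. At an unadjusted p under 0.05 (limma), 4 were higher, against 6.67% of all genes, and 3 lower, against 7.19%. The higher ones were Jun (0.40 ± 0.09, log2, SE), Epha4 (0.23 ± 0.07), Egr2 and Klf6. The lower ones were Elk3 (-0.42 ± 0.15), Ier3 and Btg2. Egr2 lay between 7.17 and 7.60 (log2) on the 8 arrays, not far above the brightness limit of 7.04. Egr2, a zinc finger transcription factor, was at 0.22 ± 0.07 (log2, SE) in the first hour and -0.28 ± 0.06 between the windows, and Klf6 at 0.19 ± 0.08 and -0.31 ± 0.07. Opposite signs were measured for Btg2, an antiproliferative gene (-0.29 ± 0.07 and 0.28 ± 0.07), and for Ier3 (-0.34 ± 0.09 and 0.34 ± 0.08). Between the windows 4 of the 33 were higher (against 12% of all genes) and 7 lower (against 7.45%) at an unadjusted p under 0.05. None passed (limma, adjusted p of 0.175 or more).

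**Figure D4:**
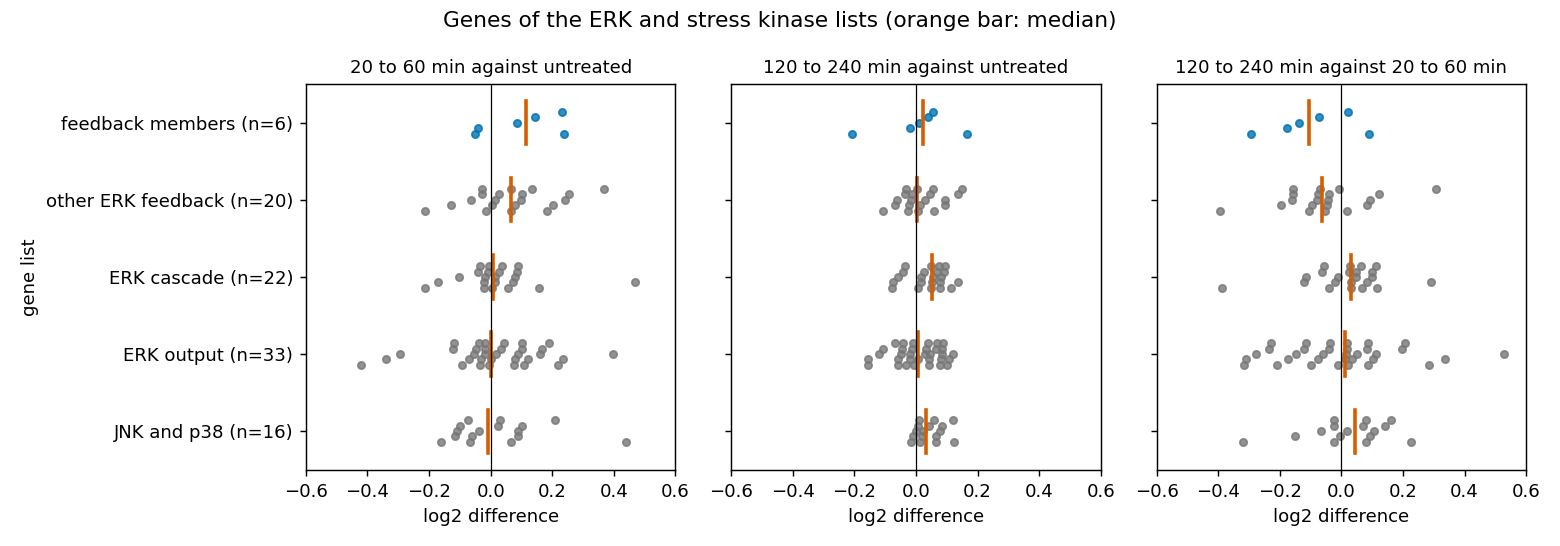
Log2 differences (horizontal axes) of the genes tested in each list (vertical axis) for the 3 comparisons, 1 point per gene, with the median as an orange bar. In the first hour the medians are 0.12 for the members and 0.07 for the other feedback genes, and 0.00816 and 9.23e-04 for the cascade and output lists.

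The genes whose course was most like that of the 3 members with the widest range were found by Pearson's r over the 8 arrays among all genes tested. For Errfi1 they were Supv3l1 (r = 0.98) and Mybbp1a (r = 0.98). For Erf they were Eif5 (r = 0.96) and Foxn2 (r = 0.95), and for Dusp1 they were Ints6 (r = 0.97) and Rab11fip5 (r = 0.96). Foxn2 was 8.82 and 8.78 (log2) untreated, 8.84, 8.87 and 8.97 in the first hour and 8.66, 8.73 and 8.75 later. Rab11fip5 was 9.30 and 9.21 untreated, 9.51, 9.52 and 9.58 in the first hour, and 9.44, 9.34 and 9.52 later. These are the highest correlations among all genes tested, over 8 points, and are given as a description. Among the members themselves r ran from -0.91, between Dusp6 and the Spred1 probe set 1423160_at, to 0.86, between Dusp1 and Errfi1. Another Spred1 probe set does not share the course of 1423160_at. With the G2 and M phase mean, r was 0.82 for Dusp6 and -0.72 for 1423160_at. The other pairs of the 3 members with the widest range gave 0.62 (Errfi1 and Erf) and 0.21 (Dusp1 and Erf).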

How the data were processed

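Total RNA was hybridised to Affymetrix arrays as biotinylated cRNA, per the labels. The deposited values are linear intensities, 1 per probe set and array; the authors' summarising and scaling method: not given in the sources used here. Array medians lay between 192 and 198, so the intensities were used without further scaling, as log2(intensity + 16). Depth does not apply to arrays; it is their number that sets the precision. Symbols come from the platform annotation. Control probe sets (64) and the dimmest 30% of probe sets (mean log2 of 7.04 or less) were left out, and each gene was represented by its brightest probe set with a single symbol (9294 genes).

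limma 3.58.1 (R 4.3.3) was fitted with 3 windows (untreated, 20 to 60 min, 120 to 240 min; 2, 3 and 3 arrays, 5 residual degrees of freedom), with Benjamini-Hochberg adjusted p under 0.05 over all genes. The arrays of a window are different times, not replicates, and the labels name no batch. Other probe sets came from a fit of all 22626 that are no controls, without a brightness filter. The scripts were tested on simulated data. The members and lists were chosen with earlier results of these data known. Named from each list are the up to 4 genes with the smallest p for the later window against the first hour. Also named are the other feedback genes and the genes known to respond to ERK with an unadjusted p under 0.05 (limma) in the first hour. The alternatives were other pseudocounts, filters and normalizations, every probe set, array weights, a G2 and M phase covariate and leaving out each array.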

Additional observations from a re-analysis of the deposited data

How the results depend on the processing

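Of the 6 members tested, 0 passed in each comparison. With the G2 and M phase covariate 1 passed in the first hour (Dusp1) and 1 between the windows (Erf), with array weights 2 passed between the windows (Erf and Errfi1), and without single arrays the count between the windows lay between 0 and 1. Over all genes, 0 passed in each comparison, against 582 (6.26%) in the first hour and 521 (5.61%) between the windows with the covariate, 2859 (30.8%) between the windows with array weights and 1014 (10.9%) without 240 min; a count of 1 or 2 was reached in the first hour without untreated replicate 1 or without 120 min, and a count of 1 at 120 to 240 min with a pseudocount of 1, the covariate, array weights or without untreated replicate 1. The array weights ran from 0.378 for 240 min to 7.12 for 180 min. No member was 1.5-fold from untreated with a pseudocount of 1 or 64 or quantile normalization. Dusp1 and the brighter Erf probe set kept their direction in all 3 comparisons under all 17 alternatives that keep the probe set. Signs turned for some values, which then lay between -0.13 and 0.12 (log2). At 20 to 60 min these were Spry2 without 60 min (0.030; -0.088 to 0.030 over arrays left out), Spred1 without untreated replicate 2 (0.012; -0.11 to 0.012) and on 1423161_s_at (0.12), and Erf on its other probe set (-0.070). At 120 to 240 min they were Dusp6 with array weights (-0.00521), without untreated replicate 2 (-0.13; -0.13 to 0.15) and without 240 min (-0.076), Spry2 with array weights (0.030) and without 240 min (0.00822; -0.051 to 0.00822), Spred1 without untreated replicate 1 (-0.023; -0.023 to 0.10) and Errfi1 without untreated replicate 2 (-0.028; -0.028 to 0.14). Between the windows they were Spry2 without 60 min (-0.051; -0.051 to 0.067), without 180 min (-0.00877) and on its other probe set (-0.037), and Spred1 on 1423161_s_at (-0.077). The cause was not tested. Where an untreated array was left out, the lone one was assumed to vary like the other windows. No paired analysis was possible because the times have 1 array each and the labels give no replicate numbers.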

Other observations

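The JNK and p38 kinases, which several of the dual-specificity phosphatases also act on, were described by a list of 19 genes, of which 16 were tested. In the first hour 8 lay above untreated, beside 44.5% of all genes, and 8 below, with a median of -0.00741 (log2). At 120 to 240 min 14 lay above, beside 55.2% of all genes, and 2 below, with a median of 0.03 beside 0.00725 over all genes. None passed in limma. Gadd45a, a stress gene that can activate a kinase upstream of JNK and p38, was 8.02 and 8.04 untreated, 8.35, 8.47 and 8.59 at 20, 40 and 60 min, and 8.30, 8.10 and 8.06 at 120, 180 and 240 min. Its first-hour arrays lay above both untreated arrays, as for 16.1% of all genes, and above all later arrays, as for 8.5%. The share meeting both was not counted. The difference between the windows was -0.32 ± 0.08 (SE; limma, adjusted p = 0.184). Map3k4, a kinase that Gadd45 proteins bind, was at 0.23 ± 0.07 between the windows, Mapk13, a p38 kinase, at 0.16 ± 0.08, and Map3k7 at 0.09 ± 0.05.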
